A study of Mus musculus with 6 samples.

Results

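Cholesterol, fatty acids and triglycerides are built by enzymes whose genes are largely switched on by the SREBP transcription factors. Srebf2 mainly drives the sterol arm and Srebf1 the fatty acid arm. When sterols are scarce, the SREBP precursors leave the endoplasmic reticulum, are cut in the Golgi and enter the nucleus, and Insig proteins hold them back when sterols are plentiful. Dividing cells need these lipids for new membrane, and mammary epithelium makes them in quantity during lactation. The genes described here are the listed sterol, fatty acid and triglyceride synthesis genes for which the array annotation gives a probe set with a single gene symbol. Of 42 listed genes 40 were measured, by 93 probe sets, out of 18193 genes and 34945 single-gene probe sets in all. Acat2 and Acsl1 were not analysed here.

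The cells were V720, derived from mouse breast cancer and given as mammary epithelium in the labels, and grew in medium with fetal calf serum. The 3 control samples received vehicle and the other 3 received PD0332991 (palbociclib, an inhibitor of the cell cycle kinases CDK4 and CDK6) at 1 µM, each for 24 h, and all 6 carried no other agent by their labels. Total RNA from each sample was hybridized to its own Affymetrix expression array. The series text speaks of biological triplicates without saying whether cultures were separate, so the p-values rest on the variation among these 6 samples, which may be technical. The median probe-set intensity lay between 69.8 and 72.9 on the 6 arrays. Of 8 epithelial markers Epcam, Cdh1, Krt8, Krt18, Krt7, Cldn3 and Cldn4 were bright, each at 1405 or more on every array, and Krt19 was listed at 1.00 to 2.27. The summed intensity of the 8 was 52695 to 54088 with vehicle and 55805 to 57467 with PD0332991. Markers of adipocytes, the other lipid-making cells of the gland, were near the floor, with summed intensities of 36.0 to 54.5 with vehicle and 46.4 to 64.6 with PD0332991 over 5 genes. None of those 5 was called, and none had an unadjusted p under 0.05 in limma.

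Most of the pathway changed little, and Tm7sf2 stood apart from the rest. Of the 40 genes, 7 rose with PD0332991 (Tm7sf2, Acss2, Nsdhl, Dhcr7, Mvd, Lpin1 and Hsd17b7), 3 fell (Elovl6, Stard4 and Acsl3) and 30 were not called at an adjusted p of 0.05 (limma, Benjamini-Hochberg over all genes). That is 25.0% of them, beside 21.0% of all genes tested, with 9.81% of all genes higher and 11.2% lower. Among genes above the median level, where 37 of the 40 lie, 34.9% were called. The members' median log2 fold change was 0.08, against 0.00 (0.0048) for all genes, and 29 of 40 were above 0, a count that was 11 when arrays were centred on spike-in controls. Only Tm7sf2 of the 40 changed at least 2-fold, the others having log2 fold changes from -0.23 to 0.53. The groups did not overlap for 22 of 40, or 55.0%, beside 38.9% of all genes and 60.7% of those above the median level.

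**Figure D1:**
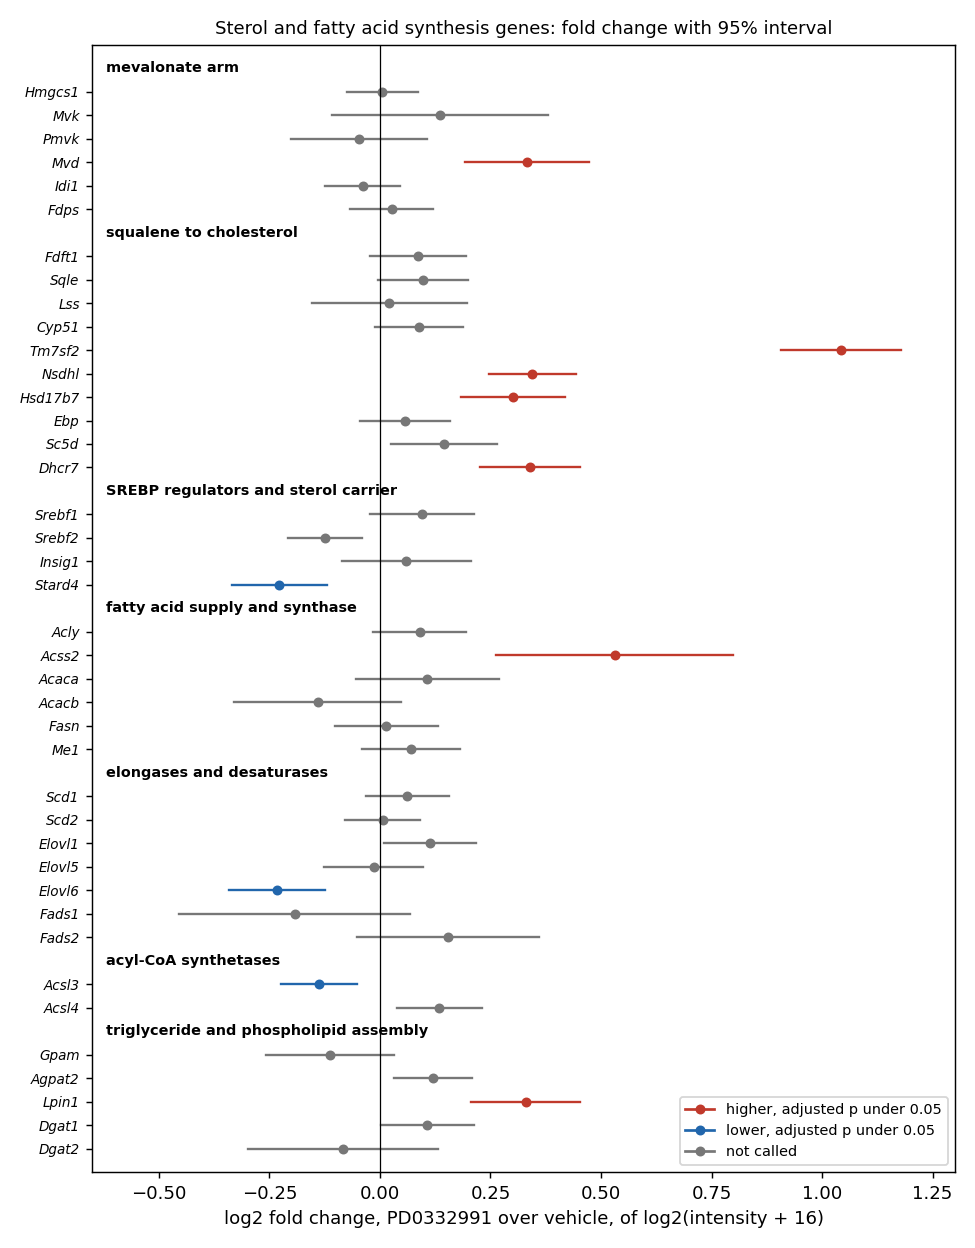
Log2 fold change of each of the 40 genes (x axis, PD0332991 over vehicle, 3 arrays each) with its 95% interval from limma as a bar, grouped by step of the pathway. Red points were called higher, blue lower and grey neither. Tm7sf2 lies at 1.04, apart from the other 39 genes between -0.23 and 0.53.

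The count of called genes depended on how the arrays were scaled. Hybridization spike-ins, control transcripts added to every sample, averaged 9.74 (log2) on vehicle replicate 1 and 9.94 to 10.05 on the other 5 arrays. Centred on them, the log2 fold change of each of the 40 genes was lower, with a median of -0.12 over all genes and of -0.05 over the 40. On that scale 2 of the 40 rose (Tm7sf2 and Acss2) and none fell, with 6 lower at an unadjusted p under 0.05 in limma. With vehicle replicate 1 also left out, 3 rose (Tm7sf2, Acss2 and Hsd17b7) and 1 fell (Stard4). Centred on the array median, 9 rose and 2 fell. Over all genes the split moved from 1785 higher and 2035 lower to 240 and 1475 with spike-ins and to 2138 and 1618 with array medians. The scaling of the deposited values is not given in the sources used here. No scaling of these arrays, on hybridization controls or on medians, gives total RNA per cell, so a change in it cannot be read. In RNA from a whole culture, fewer cells that express a gene and less RNA per cell cannot be told apart.

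Tm7sf2 encodes the endoplasmic reticulum reductase that acts just after Cyp51 in the conversion of lanosterol to cholesterol. Its intensity was 574, 569.9 and 610.0 on the vehicle arrays and 1192, 1303 and 1174 on the PD0332991 arrays. Every treated array was far above every vehicle array, with means of 585 ± 22.0 and 1223 ± 69.7 (SD, n = 3 each). The gene, on chromosome 19 and measured by a single probe set, rose 2.06-fold (log2 fold change 1.04, SE 0.06, adjusted p = 0.000154) and ranked 26 by size of rise among 18193 genes. It remained called under all 20 alternative settings, with log2 fold changes from 0.92 to 1.07. Relative to the mean of the other 39 genes on each array, its log2 level was -1.36, -1.44 and -1.33 with vehicle and -0.45, -0.32 and -0.44 with PD0332991, a change of 0.98. The mean of the other 39 moved by 0.07 on that scale.

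The genes on each side of Tm7sf2 in the genome were not called. Vps51, a subunit of a vesicle tethering complex whose RefSeq span overlaps that of Tm7sf2 by 9 bases, had intensities of 529, 583 and 554 with vehicle and 472, 518 and 521 with PD0332991. Its 3 probe sets had log2 fold changes of -0.14, -0.10 and -0.16, none called. Znhit2, the neighbour on the other side, had a log2 fold change of 0.13 (adjusted p = 0.118).

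The same reduction step is also carried out by Lbr, the lamin B receptor, a protein of the inner nuclear membrane that is not a member of the set. Lbr moved the other way, from 3565, 3742 and 3569.6 with vehicle to 1998, 1972 and 1860.0 with PD0332991. The means were 3625 ± 101 and 1943 ± 73.4 (SD, n = 3 each), with the groups far apart. This was a fall of 1.86-fold (log2 fold change -0.89, SE 0.04, adjusted p = 0.000127), and Lbr stayed called lower under all 20 alternatives. So the transcripts of both proteins known for this activity changed, in opposite directions, by amounts larger than those of any other sterol enzyme measured. Whether the sum of the reductase activity changed cannot be read from these arrays, since intensities of different probe sets cannot be added.

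**Figure D2:**
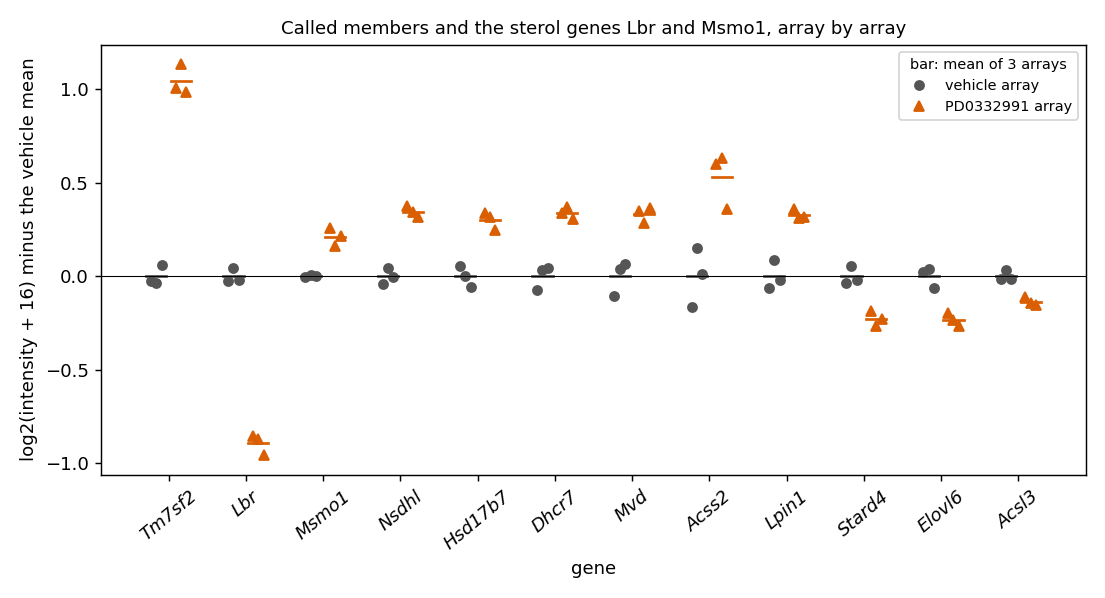
Each array's log2(intensity + 16) minus the mean of the vehicle arrays (y axis) for the 10 called genes and for the sterol genes Lbr and Msmo1 (x axis). Circles are vehicle arrays, triangles PD0332991 arrays and bars the means of 3 arrays. Tm7sf2 rises by 1.04 and Lbr falls by 0.89. The groups do not overlap in any of the 12 genes, beside 38.9% of all genes without overlap. All 12 were called on these same arrays, so the lack of overlap adds no support.

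Promoter sequences are shown for the pair of reductases that moved in opposite directions, for Nsdhl, which rose, and for Hmgcs1, the single member whose window held a match to the sterol regulatory element. They run 5′ to 3′ from 250 bases before the transcript start to 50 after it, from RefSeq (GRCm38.p6): Tm7sf2 at chr19:6067801-6068100 on the minus strand, Lbr at chr1:181842352-181842651 on the minus strand, Nsdhl at chrX:72918271-72918570 on the plus strand and Hmgcs1 at chr13:119690101-119690400 on the plus strand. Capitals mark CCAAT, the box bound by NF-Y, a common partner of SREBP, or its reverse complement ATTGG, and TCACNCCAC, the sterol regulatory element.
Tm7sf2: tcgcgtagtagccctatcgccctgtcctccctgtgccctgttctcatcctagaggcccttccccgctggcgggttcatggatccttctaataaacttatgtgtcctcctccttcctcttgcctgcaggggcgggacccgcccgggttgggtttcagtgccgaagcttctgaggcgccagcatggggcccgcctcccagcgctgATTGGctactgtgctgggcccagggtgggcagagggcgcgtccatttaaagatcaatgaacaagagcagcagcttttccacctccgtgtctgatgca
Lbr: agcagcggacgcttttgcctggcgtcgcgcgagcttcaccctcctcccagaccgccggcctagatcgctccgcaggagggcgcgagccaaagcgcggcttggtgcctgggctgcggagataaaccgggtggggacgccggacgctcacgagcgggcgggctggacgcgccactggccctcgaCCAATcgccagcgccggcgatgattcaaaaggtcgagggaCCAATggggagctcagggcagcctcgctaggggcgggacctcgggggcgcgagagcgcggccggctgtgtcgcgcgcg
Nsdhl: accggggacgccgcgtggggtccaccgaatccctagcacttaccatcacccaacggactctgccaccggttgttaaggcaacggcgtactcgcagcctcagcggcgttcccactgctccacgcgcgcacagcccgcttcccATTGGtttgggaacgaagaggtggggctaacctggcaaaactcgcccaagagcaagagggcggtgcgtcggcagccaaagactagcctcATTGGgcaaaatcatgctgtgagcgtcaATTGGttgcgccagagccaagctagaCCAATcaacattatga
Hmgcs1: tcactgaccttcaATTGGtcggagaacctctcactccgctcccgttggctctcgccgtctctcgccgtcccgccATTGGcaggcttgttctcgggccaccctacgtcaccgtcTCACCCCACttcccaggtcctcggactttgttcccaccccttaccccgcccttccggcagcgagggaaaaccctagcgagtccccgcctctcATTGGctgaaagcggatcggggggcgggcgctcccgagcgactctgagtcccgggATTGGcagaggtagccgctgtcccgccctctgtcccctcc
The Tm7sf2 window holds 1 CCAAT box, 47 bases before the start, and the Lbr window 2, at 68 and 28 bases before it. Hmgcs1 holds the sterol element 137 bases before its start.

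Windows were found for 31 of the 40 genes, 39 windows in all, and searched on both strands. CCAAT was present in 26 of 39 (66.7%), beside 37.4% of all 32851 windows in the table. GGGCGG, the Sp1 box, was present in 27 of 39 (69.2%), beside 35.7% of all windows and 52.3% of windows of genes on the arrays. TCACNCCAC was in 1 of 39 (2.56%), beside 1.24% of all windows and 1.22% of windows of genes on the arrays. The E-box CACGTG was in 5 of 39 (12.8%), beside 7.15% and 8.725%. Neither E2F form searched, TTTCGCGC or TTTGGCGC, was in any of the 39. They were in 0.323% and 0.514% of all windows, and in 0.480% and 0.790% of windows of genes on the arrays. CCAAT was in 6 of 9 windows of genes that rose and in 19 of 28 windows of genes not called. Matches of different motifs can share bases, and a match is a description of the letters only.

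The mevalonate arm turns acetyl-CoA into the isoprenoid farnesyl diphosphate. Of its 6 measured genes 1 rose and none fell, and the median of their log2 fold changes was 0.02. The gene that rose was Mvd, the decarboxylase that makes isopentenyl diphosphate, with intensities of 290.1, 322 and 329 with vehicle and 403, 386 and 408 with PD0332991. All 3 treated arrays lay above all 3 vehicle arrays (log2 fold change 0.33, SE 0.06, adjusted p = 0.0123), and both of its probe sets were called higher. The call was lost after spike-in centring (0.21). Hmgcs1, the synthase at the entry to the arm and a classic SREBP target, had 5788, 5766 and 5799.7 with vehicle and 5867, 5698 and 5859 with PD0332991. Its groups overlapped, with a 95% interval of -0.08 to 0.09 for the log2 fold change, and 2 of its 5 probe sets were above 0 and 3 below. Fdps, the farnesyl diphosphate synthase (log2 fold change 0.03), Idi1, the isomerase of isopentenyl diphosphate (-0.04), Pmvk, a mevalonate pathway kinase (-0.05), and Mvk, mevalonate kinase (0.14), were not called either.

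From squalene to cholesterol all 10 measured genes had log2 fold changes above 0, from 0.02 to 1.04, with a median of 0.12. Of the 10, 4 rose. Over all genes tested, 51.1% were above 0 and 9.81% were called higher. Among genes above the median level, where all 10 lie, these shares were 48.8% and 15.6%. The shared sign depended on the scaling, since 5 of the 10 were below 0 after spike-in centring (Lss at -0.11, Ebp at -0.07, Fdft1 and Cyp51 at -0.04 and Sqle at -0.03). Besides Tm7sf2 the genes that rose were Nsdhl, Hsd17b7 and Dhcr7. Nsdhl and Hsd17b7 take part in the removal of methyl groups from the sterol ring. Dhcr7 is the reductase that makes cholesterol from its immediate precursor. Nsdhl had 2205, 2345 and 2267 with vehicle and 2949, 2888 and 2833 with PD0332991. It rose 1.27-fold (log2 fold change 0.35, SE 0.04, adjusted p = 0.00302), with means of 2272 ± 69.9 and 2890.0 ± 57.9 (SD, n = 3 each). Dhcr7 went from 2206, 2374 and 2392 to 2944, 3005 and 2878, a 1.27-fold rise with groups well apart (log2 fold change 0.34, SE 0.05, adjusted p = 0.00547).

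Hsd17b7 went from 913, 879 and 842 to 1115, 1097 and 1045, with no overlap (log2 fold change 0.30, SE 0.05, adjusted p = 0.00918). Its probe sets disagreed in size: 2 were called higher (0.30 and 0.31), while the others had 0.10 and -0.09, and the call was lost when probe sets of the types that can match several transcripts were left out. After spike-in centring the log2 fold changes of Nsdhl, Dhcr7 and Hsd17b7 were 0.22, 0.21 and 0.17, none of them called.

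The oxidase of the same demethylation, Msmo1, is not a member. It went from 4148, 4177 and 4158 to 4976, 4649 and 4839, and rose (log2 fold change 0.21, adjusted p = 0.0151), with no overlap. So Msmo1, Nsdhl and Hsd17b7, which act together after Tm7sf2 and Lbr to remove methyl groups, were each called higher. Cyp51, the demethylase before them, was not called with the main settings (0.09, adjusted p = 0.196). It was called higher under 1 of 20 alternatives, eBayes with trend and robust settings. Whether Cyp51 changed less than these genes was not tested. The Msmo1 call was lost without vehicle replicate 1 or 3 or PD0332991 replicate 3, where the log2 fold change was 0.21 each time, and after spike-in centring (0.08). It was also lost with the mean of the Msmo1 probe sets (0.18, adjusted p = 0.0742) and with a block for replicate number (adjusted p = 0.0653).

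The remaining enzymes of this arm were not called on their brightest probe sets. Sqle, the epoxidase that is a rate-limiting step of sterol synthesis, had 3778, 3981 and 3979 with vehicle and 4318, 4120.4 and 4127 with PD0332991. The groups did not overlap, but the difference was small (log2 fold change 0.10, SE 0.04, adjusted p = 0.165). Fdft1, squalene synthase (0.09), Cyp51, the lanosterol demethylase (0.09), Lss, lanosterol synthase (0.02), Ebp, a sterol isomerase (0.06), and Sc5d, a sterol desaturase (0.14, adjusted p = 0.0943), gave the other values. Dimmer probe sets of 3 of them were called higher when each probe set was tested on its own: Lss at 0.32, Sc5d at 0.38 and Cyp51 at 0.27. For Cyp51 the probe set of middle brightness had -0.10, so the gene has no single direction here.

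**Figure D3:**
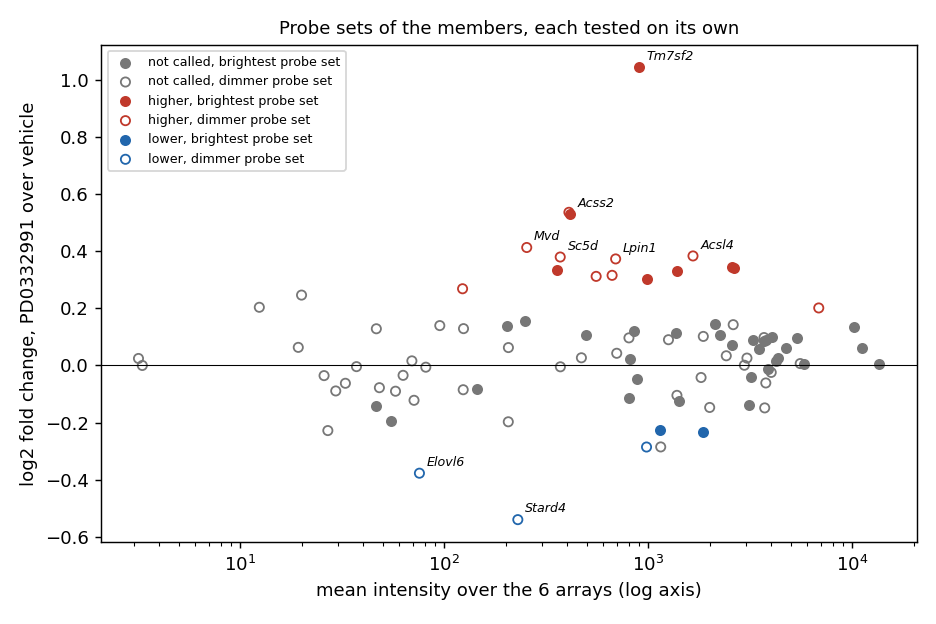
Log2 fold change (y axis, PD0332991 over vehicle) of the 93 probe sets of the 40 genes against mean intensity over the 6 arrays (x axis, log scale), each tested on its own. Filled points are the brightest probe set of a gene, open points its dimmer ones, and colours give the call. Of the 93, 16 were called higher and 5 lower, beside 6138 called in either direction among all 34945 single-gene probe sets. No gene had called probe sets in both directions.

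The regulators of the pathway were not called with the main settings. Under the 20 alternatives Srebf2 was called lower in 4, and Srebf1 was called higher in 1, eBayes with trend and robust settings. Srebf1 had 4919, 5456 and 5228 with vehicle and 5527, 5534 and 5603 with PD0332991, so that all treated arrays lay just above the vehicle arrays (log2 fold change 0.10, 95% interval -0.02 to 0.21, adjusted p = 0.229). Srebf2 values lay on the other side, from 1445, 1458 and 1500.4 to 1352, 1334 and 1353 (log2 fold change -0.12, 95% interval -0.21 to -0.04, adjusted p = 0.0540). The dimmer Srebf2 probe set was at -0.0049 on the log2 scale. Insig1, the sterol-sensing brake and itself an SREBP target, had overlapping groups, 4517, 4891 and 4474 against 5131, 4714 and 4633 (log2 fold change 0.06, adjusted p = 0.548).

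Stard4, a carrier that moves cholesterol between membranes, fell. Its intensity was 1208, 1289 and 1221 with vehicle and 1087, 1028 and 1053 with PD0332991, with every treated array below every vehicle array (log2 fold change -0.23, SE 0.04, adjusted p = 0.0171). All 3 of its probe sets were called lower, the others at -0.29 and -0.54. On the brightest probe set the call was lost without PD0332991 replicate 2 (-0.21, adjusted p = 0.0599) or 3 (-0.23, adjusted p = 0.0557), and after spike-in centring (-0.35, adjusted p = 0.0594).

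Of 7 measured genes whose proteins process SREBPs or sense sterols none was called, and 2 had an unadjusted p under 0.05 in limma. Their median was 0.02 (log2 fold change). The smallest p was that of Erlin2, a protein of the endoplasmic reticulum that takes part in the turnover of sterol regulators (1529, 1571 and 1587 against 1691, 1675 and 1754, log2 fold change 0.13, adjusted p = 0.0664).

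Of 10 measured genes that take up, store or export cholesterol, 5 rose and none fell, the lowest log2 fold change being -0.11, with a median of 0.15. The 50% called higher stand beside 9.81% of all genes tested. Among genes above the median level, where 8 of the 10 lie, 15.6% were called higher. Abca1, the transporter that hands cholesterol to lipoproteins, went from 1449, 1459 and 1463 to 2248, 1977 and 2292 (log2 fold change 0.57, SE 0.06, adjusted p = 0.00270). The treated arrays were spread more widely than the vehicle arrays but stayed well above them. The call was lost with the mean of its 3 probe sets (0.24). Lipa, the lysosomal lipase that frees cholesterol from esters, rose from 457, 494 and 489.7 to 619, 617 and 573 (log2 fold change 0.32, SE 0.05, adjusted p = 0.00998). Its groups were well apart, and the call was lost after spike-in centring (0.19) and with a block for replicate number (adjusted p = 0.0525). Abcg1, a partner of Abca1 in cholesterol export that was picked for naming after its values were seen, rose at a low level, from 44.6, 60.1 and 45.6 to 97.1, 75.8 and 80.3 (log2 fold change 0.60, adjusted p = 0.0193). That call was lost without vehicle replicate 1 or 3 or PD0332991 replicate 1 or 3, with log2 fold changes of 0.52 to 0.63 and adjusted p of 0.0516 to 0.0678. It was also lost with the mean of the Abcg1 probe sets (0.28, adjusted p = 0.120) and with the replicate block (adjusted p = 0.079). On the same arrays 3 of 5 leukocyte markers rose, Cd68, Ptprc and Adgre1, with summed intensities of 342 to 366 with vehicle and 438 to 475 with PD0332991 over the 5. The largest part of those sums was Cd68, at 216 to 247 with vehicle and 291 to 319 with PD0332991. Ptprc was dim although called, at 9.95 to 13.3 and 17.1 to 19.1. Cd3e lay at 1.00 to 7.09 and Itgam at 1.73 to 10.1, and the part of leukocyte transcripts in these results was not tested.

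In the fatty acid arm, 1 of 6 genes that supply or use acetyl-CoA rose and none fell, with a median log2 fold change of 0.08. It was Acss2, which makes acetyl-CoA from acetate in the cytosol and nucleus. Its intensity was 297, 372 and 337 with vehicle and 514, 526 and 433 with PD0332991. The groups did not overlap, although the arrays of each group were far apart (log2 fold change 0.53, SE 0.11, adjusted p = 0.0214). Of its 3 probe sets 2 were called higher, at 0.53 and 0.54. The call held after spike-in centring (0.40), and it was lost without vehicle replicate 1 or 3 or PD0332991 replicate 1 or 2, with log2 fold changes of 0.45 to 0.54 and adjusted p of 0.0581 to 0.0714.

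Fasn, the fatty acid synthase, had 4016, 4345 and 4296 with vehicle and 4293, 4124 and 4366 with PD0332991, ranges that lie across each other. Its log2 fold change was 0.01 with a 95% interval of -0.10 to 0.13. Acaca, the carboxylase that commits acetyl-CoA to fatty acid synthesis, had 2006, 2337 and 2152 against 2346, 2241 and 2400.0 (log2 fold change 0.11, 95% interval -0.06 to 0.27), again with overlap. Acly, which makes acetyl-CoA from citrate, and Me1, a source of NADPH, had log2 fold changes of 0.09 and 0.07, and neither was called. Acacb, the mitochondrial form of the carboxylase, was dim in both groups at 40.1 to 55.3 and was not called.

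The desaturases and elongases gave 1 lower gene out of 7 and none higher, with a median of 0.01. Elovl6, which lengthens palmitate, fell from 2043, 2064 and 1921 to 1750.3, 1704 and 1666, with no overlap (log2 fold change -0.23, SE 0.04, adjusted p = 0.0165). All 3 of its probe sets were below 0 (-0.23, -0.29 and -0.38), 2 of them called. The call of the brightest was lost without vehicle replicate 1 or 2 or PD0332991 replicate 2 or 3, with log2 fold changes of -0.23 to -0.21 and adjusted p of 0.0554 to 0.0581. It was also lost after spike-in centring (-0.36, adjusted p = 0.0647). The stearoyl-CoA desaturases, which put the first double bond into saturated fatty acids, were among the brightest transcripts on the arrays. Scd1 had 10564, 11253 and 10944 against 11477, 11258 and 11468, and Scd2 had 13234, 13685 and 13757 against 13571, 13542 and 13738. Neither was called (log2 fold changes 0.06 and 0.01, with 95% intervals of -0.03 to 0.16 and -0.08 to 0.09). The dimmer probe set of Scd1 was at -0.15 and not called. Elovl1, an elongase of long saturated chains (0.11), Elovl5, an elongase of polyunsaturated chains (-0.01), and the polyunsaturated fatty acid desaturases Fads1 (-0.19) and Fads2 (0.15) were not called.

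The acyl-CoA synthetases activate fatty acids for use, and 1 of the 2 measured fell. Acsl3, known for its role at lipid droplets, went from 3227, 3334 and 3229 to 3017, 2954 and 2927 and fell (log2 fold change -0.14, SE 0.03, adjusted p = 0.0426). This was the weakest call of the 10, lost under 15 of 20 alternatives, among them the leaving out of any 1 array (-0.15 to -0.12, adjusted p = 0.0823 to 0.117) and spike-in centring (-0.26, adjusted p = 0.165), although its 3 probe sets were all below 0. Acsl4, which prefers arachidonate, had 9481, 9897 and 9662 against 10958, 10562 and 10368, without overlap (log2 fold change 0.13, adjusted p = 0.0636). Its dimmer probe sets were called higher, at 0.20 and 0.38.

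Of 5 genes of triglyceride and phospholipid assembly 1 rose and none fell, with a median of 0.11. Lpin1, the phosphatase that makes diacylglycerol, went from 1164, 1294 and 1200.1 to 1567, 1517 and 1521. The treated arrays were close together and above all vehicle arrays (log2 fold change 0.33, SE 0.05, adjusted p = 0.00798), and both of its probe sets were called higher. The call was lost after spike-in centring (0.20). The acyltransferases Agpat2 (0.12, adjusted p = 0.0697) and Gpam (-0.11), and the final enzymes of triglyceride synthesis, Dgat1 (0.11) and the dim Dgat2 (-0.08), were not called.

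Of 17 fatty acid and glycerolipid synthesis genes outside the set 3 rose and 1 fell, and their median log2 fold change was 0.07. Called genes made up 23.5% of them, beside 21.0% of all genes tested. Elovl3, an elongase, rose at a low level, from 38.8, 37.2 and 40.2 to 54.8, 53.1 and 55.0 (log2 fold change 0.36, adjusted p = 0.00213), and Agpat1, an acyltransferase, from 349, 362 and 358 to 439, 413 and 413 (0.23, adjusted p = 0.0125). Acsl5, another acyl-CoA synthetase, fell from 3591, 3662 and 3717 to 3118, 3266 and 3269 (-0.18, adjusted p = 0.0220), a call lost when any 1 array was left out (-0.20 to -0.16, adjusted p = 0.0501 to 0.0736). After spike-in centring Elovl3 and Agpat1 were no longer called (0.23 and 0.11), and Acsl5 was at -0.31 without a call (adjusted p = 0.106). The Agpat1 call was also lost with the mean of its probe sets (0.09, adjusted p = 0.175).

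Fatty acid oxidation, the opposing pathway, had 3 of 14 genes higher and 2 lower, with a median of 0.04. That is 35.7% called, beside 21.0% of all genes tested. Among genes above the median level, where 13 of the 14 lie, it was 34.9%. Acadvl and Acads, acyl-CoA dehydrogenases for very long and short chains, rose (log2 fold changes 0.22 and 0.22, adjusted p = 0.0224 and 0.0321). Cpt1a, the gate for entry of fatty acids into mitochondria, fell from 359.6, 388 and 368 to 326, 319 and 297 (-0.23, adjusted p = 0.0270), and Etfa, an electron carrier of the pathway, fell too (-0.24, adjusted p = 0.0239). Each of these 4 calls was lost without vehicle replicate 1, 2 or 3 and without PD0332991 replicate 2. Their log2 fold changes were then 0.19 to 0.24 for Acadvl and Acads and -0.26 to -0.20 for Cpt1a and Etfa, with adjusted p of 0.0542 to 0.0930. After spike-in centring none of the 4 was called, with Acadvl and Acads at 0.09 and Cpt1a and Etfa at -0.36.

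**Figure D4:**
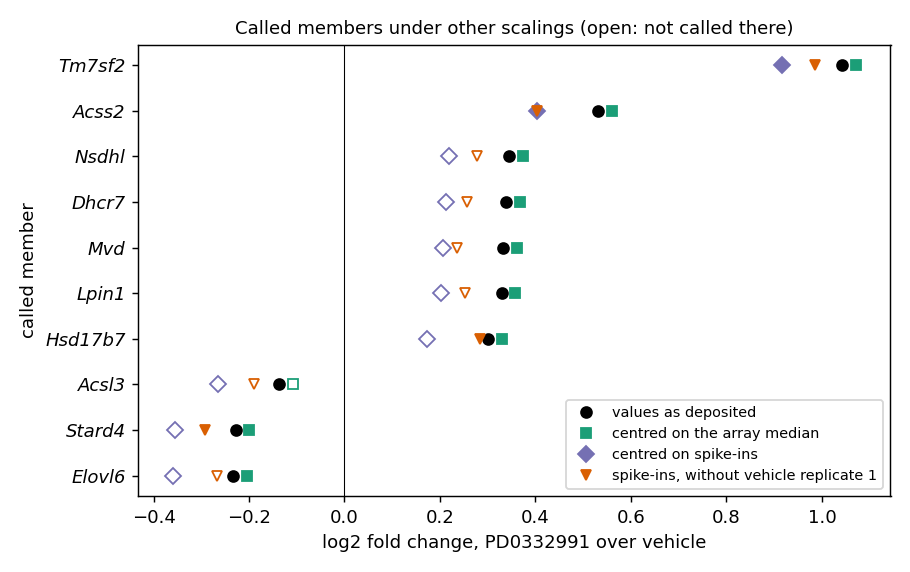
Log2 fold changes (x axis, PD0332991 over vehicle) of the 10 called genes (y axis) with the values as deposited (circles), centred on the array median (squares), on spike-ins (diamonds) and on spike-ins without vehicle replicate 1 (triangles). Filled symbols were called at an adjusted p of 0.05 and open symbols were not. Tm7sf2 and Acss2 are filled throughout, while Nsdhl, Dhcr7, Mvd and Lpin1 stay above 0 but are open under both spike-in scalings.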

How the data were processed

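Total RNA of 6 samples, 3 per group by their titles, was biotin-labelled and hybridized to Affymetrix arrays, per the labels' protocols. The authors deposited a table of linear probe-set intensities, whose summary method and scaling are not given in the sources used here. Of its rows there were 45101 probe sets, and 64 controls, 932 with several gene symbols and 9160 with none were left out. A gene was represented by its probe set with the highest mean, and all 40 members matched a RefSeq gene (GRCm38.p6) by gene number.

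Intensities were transformed to log2(intensity + 16), a scale that understates changes of dim genes, and fold changes are on it. Groups were compared with lmFit and eBayes of limma 3.58.1 (R 4.3.3); tests were two-sided, and p-values were adjusted over all 18193 genes by the Benjamini-Hochberg method at a threshold of 0.05, with no block and no filter on dim genes. The code was tested on simulated data. Motifs were matched in Python 3.11.15, and plots drawn with matplotlib 3.10.9.

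The members, lists and tests were chosen with earlier results of these data known, and the lists are described by counts and medians. Array values are given for every called member, Srebf1, Srebf2, Insig1, Hmgcs1, Sqle, Fasn, Acaca, Scd1 and Scd2. Of each related list Lbr, where present, and up to 2 genes per direction with the smallest p are named, and where none was called, only the gene of lowest p. Of the marker lists, 2 of 8 epithelial genes rose, 1 of 6 fibroblast genes fell, and none of 4 endothelial genes was called (none at an unadjusted p under 0.05). The 20 alternatives covered a replicate block, scaling, pseudocount, dim genes, choice of probe sets, variance model, array weights, each array left out and a threshold of 0.01.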

Additional observations from a re-analysis of the deposited data

How the results depend on the processing

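Of the 10 called genes, Tm7sf2 kept its call under all 20 alternatives (log2 fold change 0.9976 to 1.073 with an array left out), and 9 lost it under at least 1. Of the 30 others, 18 were never called. No called gene changed sign. Leaving out 1 array gave 6 to 8 higher, 0 to 2 lower, a median of 0.048 to 0.086 and 2497 to 2683 calls over all genes. The lower count was 1 without vehicle replicate 1 or 2 and 0 without PD0332991 replicate 2 or 3 (5 and 4 at an unadjusted p under 0.05 in limma). The replicate block gave 6 higher, 1 lower and 2047 calls in all. Same-numbered arrays did not deviate together (r = 0.01, -0.05 and 0.05), not every array correlated best with its own number, and the pairing was not used. Spike-in centring gave 2 higher, 0 lower (6 at an unadjusted p under 0.05), a median of -0.049 and 1715 calls. With vehicle replicate 1 also left out these were 3, 1, 0.0025 and 1571. The filter on dim genes gave 12 higher and eBayes with trend and robust settings 15, while an adjusted p of 0.01 gave 0 lower and 1703 calls. Testing each probe set gave 6138 calls among 34945. With 3 arrays a group, precision is limited by their number.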
